A study of Mus musculus with 3 samples.

Results

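The resting state of differentiated brown adipocytes was described from 1 array, that of iBATs on day 8 of differentiation with 0 h of isoproterenol (ISO). The iBATs are 1 line of stromal vascular cells from the interscapular brown fat of newborn C57BL/6 mice, immortalized with SV40 large T antigen, and all 3 arrays of the series carry that transgene. The cells had been differentiated with insulin and indomethacin, and the other 2 arrays were hybridized with RNA of the same line after 1 h and 2 h of ISO, a β-adrenergic agonist. With a single array at each time, no value in the text carries a replicate error and no difference was tested. The members were the genes with a probe set of exactly 1 gene symbol and a signal of at least 100 at 0 h. Each gene was represented by its brightest probe set, and a gene that reached 100 is called read below. Of 18194 genes measured, 6629 were read, which is 36.4%. At least 1000 was reached by 897 genes, which is 4.93%.

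Brown adipocytes burn fatty acids to make heat. In these cells uncoupling protein 1 lets protons return across the inner mitochondrial membrane without making ATP, and noradrenaline acting through β-adrenergic receptors, cyclic AMP and protein kinase A switches this process on. They develop from fibroblast-like precursors under the control of the nuclear receptor PPARγ and C/EBP factors, take up fatty acids and glucose, store them as triglyceride in many small droplets, and keep a dense set of mitochondria.

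The array used here gives a signal per probe set, which depends on the RNA level and on how well its probes bind. A rank by signal is therefore not a rank by RNA copies, and values of different genes stand side by side only to say which were bright, dim or below 100. A number in parentheses after a gene is its signal at 0 h. The median signal was 35.9 over all measured genes and 295.3 over the read genes. The limit fell in a dense stretch of the ranking, with 682 genes from 100 up to 125 and 640 from 80 up to 100. The genes just inside it were Vsir, Papss2 and Gtf3c3, all at 100, and those just outside were Amy1, Rnf216 and Dpagt1, all at 99.9.

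The arrays at 1 h and 2 h were taken as further readings of the same probe sets, although they also hold the response to ISO. Over the read genes Spearman's rho with 0 h was 0.978 at 1 h and 0.963 at 2 h, a description across genes, which are not replicates. Of the 6629 genes, 6482 lay within 1.5-fold of their 0 h signal at 1 h and 6235 at 2 h. At least 100 on all 3 arrays was found for 6164 of them. The other 465 had a median of 113.1 at 0 h. Of the 11565 genes below 100 at 0 h, 11309 were also below 100 at 1 h and 2 h.

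Readings also differed between probe sets of the same gene. Of the read genes, 4580 had 2 or more probe sets, and in the median gene the brightest gave 14.7 times the signal of the dimmest, a ratio raised by choosing genes on their brightest probe set. Between the brightest and the second probe set, where both reached 100, the median ratio was 1.57. Every probe set reached 100 in 968 of these genes, and only 1 probe set did in 2333. A signal below 100 also occurred for genes that every cell uses. Among cytosolic ribosomal protein genes, Rps16 (1.8), Rpl39 (32.7), Rps27 (60.8), Rpl27a (63.6) and Rps25 (89.9) were all below 100. For a gene below 100 it can thus be said that the array did not read it, not that its RNA was missing.

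The 5 genes used as markers of the cells were all read. The signal of Fabp4, which carries fatty acids inside fat cells, was 7490.0 at 0 h, 7872 after 1 h and 7096 after 2 h of ISO, and the gene was the brightest on the 0 h array. Adipoq, which encodes the hormone adiponectin, had a signal of 4986 at 0 h, 5329.8 after 1 h and 4389 after 2 h of ISO. Both are products of mature fat cells. Ucp1, the uncoupling protein of brown fat, had 1486 at 0 h, 3673 after 1 h and 4166 after 2 h of ISO. Cidea, a lipid droplet protein abundant in brown fat, had 788 at 0 h, 787 after 1 h and 1041 after 2 h of ISO. These brown fat genes stood lower in the ranking than the first pair. Col1a2, a chain of type I collagen made by fibroblasts, had 4133 at 0 h, 4557 after 1 h and 3934 after 2 h of ISO. The adipocyte markers and the collagen thus stood among the brightest 100 genes, with Adipoq at rank 31 and Col1a2 at rank 75, whereas Ucp1 stood at rank 545 and Cidea at rank 1224. All 4 probe sets of Fabp4 and 2 of 3 of Col1a2 reached 100. Adipoq, Ucp1 and Cidea each had 1 probe set.

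**Figure D1:**
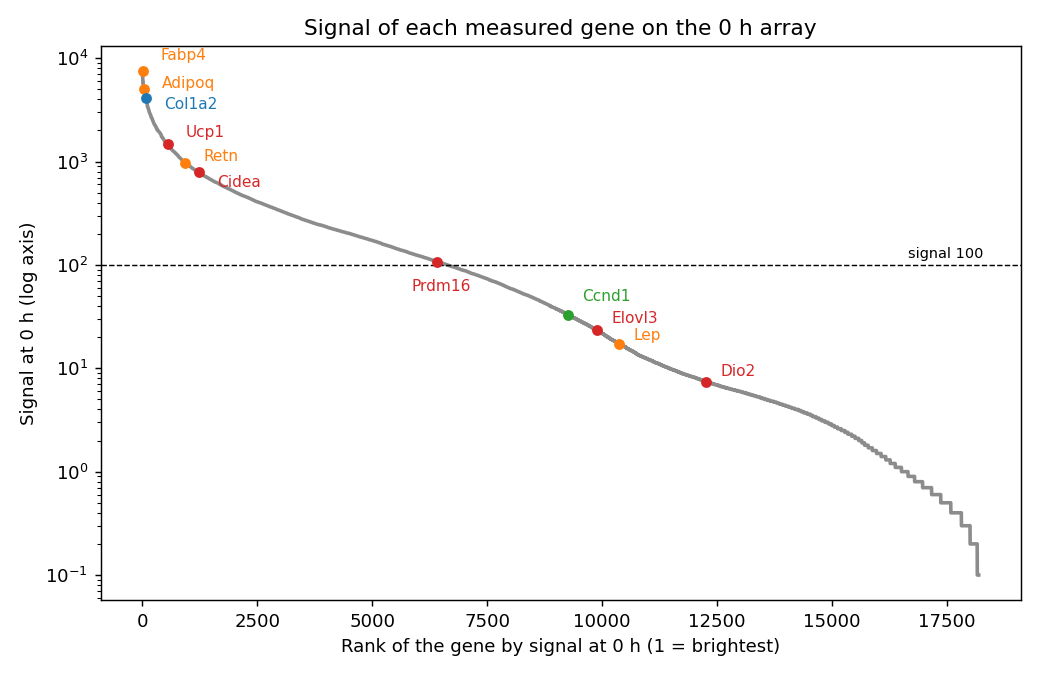
The signal at 0 h (log axis) of each of the 18194 measured genes is plotted against its rank, with 1 as the brightest, and a dashed line marks the signal of 100. Fabp4 (7490.0), Adipoq (4986) and Col1a2 (4133) stand at the top left, Ucp1, Retn and Cidea in the bright part, Prdm16 (108) just above the line, and Ccnd1, Elovl3, Lep and Dio2 below it.

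The promoters of the brown marker and the fat cell hormone differ in the short sequences close to the start, and the 120 bases before each RefSeq start (GRCm38.p6) are given for them. The sequence of Ucp1 lies at chr8:83290228-83290347, plus strand, and that of Adipoq at chr16:23146416-23146535, plus strand. Capitals mark, on either strand, the TATA box as TATAAA, its variant form TATATA, the CCAAT box and the GC box as GGGCGG. The first and second of these can overlap each other.
Ucp1: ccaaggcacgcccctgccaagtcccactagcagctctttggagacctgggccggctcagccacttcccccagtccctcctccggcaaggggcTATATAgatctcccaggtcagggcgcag
Adipoq: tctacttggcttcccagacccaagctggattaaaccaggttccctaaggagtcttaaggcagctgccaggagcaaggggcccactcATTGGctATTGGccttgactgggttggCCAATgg
The stretch of Ucp1 held a TATATA whose first base lies 28 bases before the start. TATATA occurred in 5.67% of all 300-base promoter windows. Adipoq held CCAAT or its reverse complement ATTGG 3 times, at 34, 27 and 7 bases before the start, and none of the other marked sequences. CCAAT on either strand occurred in 37.4% of all windows.

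Ribosomal proteins and subunits of oxidative phosphorylation made up much of the top of the ranking. The brightest 100 genes held 28 cytosolic ribosomal proteins, 22 subunits of the respiratory chain and ATP synthase with cytochrome c, and 50 others, and the dimmest of the 100 had a signal of 3625. Both groups were taken by symbol after the brightest genes had been seen. Of the same 100 genes, 95 were among the brightest 100 at 1 h and 91 at 2 h. Without probe sets whose identifiers mark sequence shared between transcripts, of the same gene or of several, 68 of the 100 genes and 26 of the 50 ribosomal genes still had a probe set. Of these, 42 were among the brightest 100 and 12 ribosomal genes were read.

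The 30 brightest genes were led by Fabp4. Respiratory chain genes among them were Uqcrb (6831) of complex III, cytochrome c itself as Cycs (6641), Ndufb9 (5426) of complex I, and Cox7a2 (5622), Cox6b1 (5340.2) and Cox4i1 (5151) of cytochrome c oxidase. The ribosomal proteins were Rps29 (6499.6), Rps28 (6082), Rpl13a (5864), Rpl38 (5856), Rps18 (5719), Rplp2 (5713), Rps10 (5465), Rps20 (5299.5), Rps3a1 (5299) and Rplp0 (5086). Fat metabolism gave Fabp5 (6236), a second fatty acid-binding protein, Scd1 (5856), which desaturates stearoyl-CoA, and Lpl (5419.6), the lipase that frees fatty acids from lipoproteins. Car3 (6289.9), a carbonic anhydrase abundant in fat and muscle, was the sixth gene of the ranking. The rest were Lgals1 (6588), a galectin, Fth1 (5862), the ferritin heavy chain, Eef1a1 (5672), a translation elongation factor, Hspa8 (5481), a chaperone, Tpt1 (5373), Actb (5351), B2m (5225), Pabpc1 (5119) and Hint1 (5063).

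Of 84 oxidative phosphorylation genes found by symbol, 77 were read, or 91.7% against 36.4% of all measured genes. At least 1000 was reached by 72, against 4.93% of all measured genes, and the median was 2818.5. Those below 100 were Cox7c (63.4), Ndufb1 (57.3), Cox8c (42.0), Cox6b2 (20.2), Ndufb4 (8.2), Cox4i2 (7.4) and Cox7b2 (2.2). Of 50 cytosolic ribosomal genes, 42 were read, or 84%, and 37 reached 1000, with a median of 3968.8.

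Promoter windows, 250 bases before to 50 after the start, were available for 5490 of the 6629 read genes. They were richer in CpG than those of genes below 100. The median ratio of observed to expected CpG was 0.83 for genes of at least 1000, 0.80 from 100 up to 1000, and 0.48 below 100, against 0.65 over all windows of measured genes. GGGCGG on either strand occurred in 65.1%, 67.3% and 43% of these windows in the same order. CCGGAAG, the core that ETS factors bind, occurred in 21.2%, 20% and 8.48%. TATAAA was found in 9.03% of windows of genes of at least 1000, 6.84% from 100 up to 1000 and 11.4% below 100. Read ribosomal protein genes held CCGGAAG in 17 of 44 windows, which is 38.6%, and read oxidative phosphorylation genes in 17 of 68, which is 25%. TGACGTCA, the cyclic AMP response element, occurred in 3.12%, 3.25% and 2.02% of windows of the 3 classes. These counts describe letters in a window and were not tested.

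**Figure D2:**
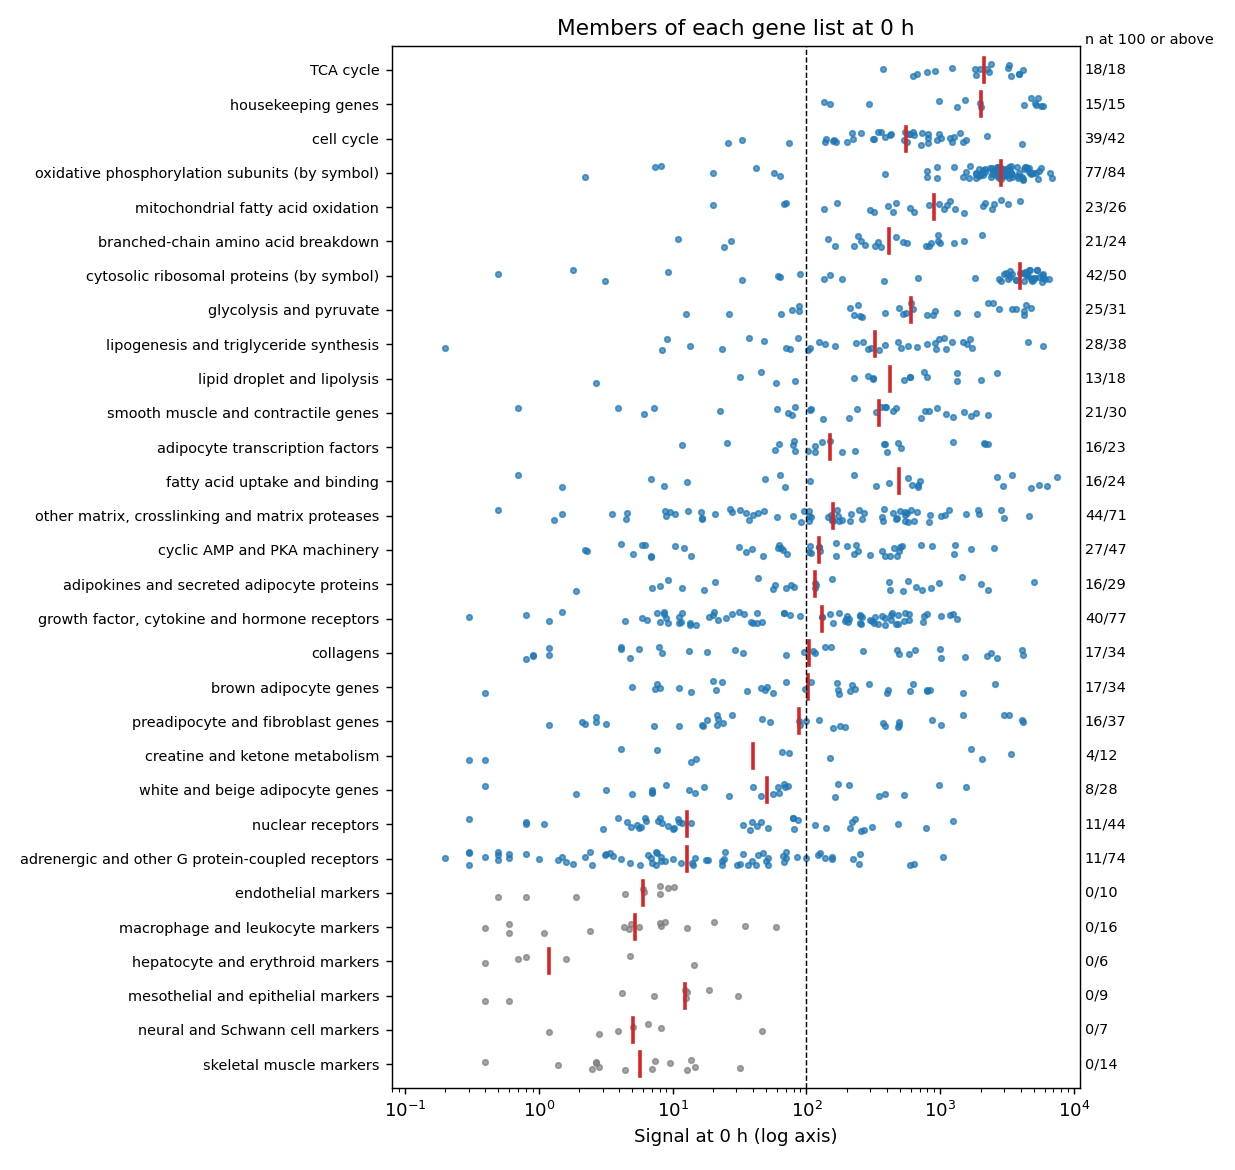
The signal at 0 h (log axis) of each measured member of 30 gene lists is shown as a point, with the list's median as a red bar, the signal of 100 as a dashed line and the count of members at 100 or above at the right. Lists are ordered by that share, from the TCA cycle (18 of 18) to 6 lists of markers of other cell types (0 of 62 genes), which are in grey.

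Of the adipocyte transcription factors 16 of 23 were read, or 69.6% against 36.4% of all measured genes, with a median of 150.6. The brightest were Cebpb (2254), an early factor of fat cell differentiation, Klf9 (2172), Srebf1 (2133), which drives lipid synthesis, and Pparg (1233), the nuclear receptor at the head of the program. Of 6 listed C/EBP factors 4 were measured and all 4 were read, from Cebpb through Cebpa (389) and Cebpg (379) to Cebpd (103) at the limit. Of the EBF factors, Ebf1 (504), Ebf2 (398) and Ebf3 (129.8) were read and Ebf4 (0.8) was not. The glucose-sensing factor Mlxipl (482) and the glucocorticoid-induced Klf15 (183) were also read. Stat5a (81.8), Zfp467 (80.7), Nr1h3 (79.4), Srebf2 (61.9), Zfp423 (57.9), which marks committed preadipocytes, Klf5 (25.6) and Rxrg (11.8) were below 100.

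Lipid droplet and lipolysis genes were read in 13 of 18 cases, or 72.2% against 36.4% of all measured genes, with a median of 422.9. G0s2 (2639), the inhibitor of adipose triglyceride lipase, was the brightest, and Plin2 (2013), the seipin gene Bscl2 (1323) and Plin4 (1322) followed. The enzymes of lipolysis were read. Pnpla2 (591) encodes adipose triglyceride lipase, Abhd5 (227) its activator, Lipe (315) hormone-sensitive lipase and Mgll (751) monoglyceride lipase. For both Pnpla2 and Lipe only 1 of 2 probe sets reached 100. Of the measured perilipins, Plin2, Plin4 and Plin3 (290.3) were read, and Plin5 (45.4), the perilipin of oxidative tissues, was not. Of the CIDE proteins, Cidea and Cidec (531) were read and Cideb (31.6) was not. Hilpda (82.2), Aqp7 (59.2), the glycerol channel, and Fitm1 (2.7) were also below 100.

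Genes of fatty acid uptake and binding were read in 16 of 24 cases, or 66.7% against 36.4% of all measured genes. Their median was 494.6, and 7 genes reached 1000. After Fabp4, Fabp5 and Lpl came Dbi (4772), which binds acyl-CoA. The fatty acid translocase Cd36 (2657) reached 100 with all 3 of its probe sets, and the caveolar genes Cav1 (2924), Cav2 (3449), Cavin1 (676) and Cavin2 (704) were read. Within the fatty acid-binding proteins the array read Fabp4 and Fabp5 and none of the other measured members, at Fabp3 (48.8), Fabp7 (31.3), Fabp1 (5.5), Fabp2 (0.8) and Fabp6 (0.4). Fabp3 is known from heart and brown fat. Of 5 listed long-chain acyl-CoA synthetases 4 were measured. Acsl5 (575), Acsl4 (414) and Acsl3 (226) were read, with Acsl6 (6.9) below. Of the measured fatty acid transport proteins Slc27a4 (106) alone was read, near the limit, while Slc27a1 (69.4), Slc27a3 (12.9), Slc27a5 (1.5) and Slc27a2 (0.7) were below 100. Gpihbp1 (8.6), the endothelial anchor of lipoprotein lipase, was also below 100.

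Lipogenesis and triglyceride synthesis were represented by 28 read genes of 38, or 73.7% against 36.4% of all measured genes, with a median of 324.8. Scd1 and Scd2 (4495) were the brightest, Agpat2 (1727) and Pcx (1678), pyruvate carboxylase, came next, and Scd3 (107) was at the limit. Genes of de novo synthesis were read, with Slc25a1 (304), Acly (982), Acaca (385), Fasn (909) and Me1 (797). Acacb (86.2), the acetyl-CoA carboxylase found at mitochondria, was below 100. Thrsp (929.7), a lipogenic gene under thyroid hormone and carbohydrate control, was bright. Among the elongases Elovl5 (1220.4), Elovl1 (509) and Elovl6 (164) were read, and Elovl3 (23.3), a gene known for its rise in cold-exposed brown fat, Elovl4 (13.4), Elovl7 (9.1) and Elovl2 (0.2) were not. Triglyceride assembly was read at each step, by Gpam (1468) and Gpat3 (481), then the AGPAT family, then Lpin1 (286) and Lpin2 (124), then Dgat1 (1569.7) and Dgat2 (571). In the AGPAT family Agpat2, Agpat3 (672), Agpat5 (264) and Agpat4 (102) were read and Agpat1 (70.0) was not. Lpin3 (8.4) was below 100, as were the monoacylglycerol acyltransferases Mogat1 (36.9) and Mogat2 (48.0). Cytosolic Gpd1 (1056) and mitochondrial Gpd2 (1223), the 2 enzymes of the glycerol phosphate shuttle, were both read, and Gpd1l (174) as well.

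Secreted adipocyte proteins were read in 16 of 29 cases, or 55.2% against 36.4% of all measured genes, with a median of 115.9. Rbp4 (2267), the chemerin gene Rarres2 (2018) and the haptoglobin gene Hp (1442) followed Adipoq. Resistin and leptin, both hormones of white fat, were read differently. Retn had 979 at 0 h, 920.5 after 1 h and 805 after 2 h of ISO, and Lep had 17.3 at 0 h, 9.9 after 1 h and 3.9 after 2 h of ISO, with 1 probe set each. The 13 genes below 100 included, besides Lep, Fgf21 (43.3), Bmp8b (8.1), Apln (69.9), Il6 (20.7), the angiotensin precursor Agt (55.8) and the resistin-like Retnla (1.9), while Nrg4 (155), a signal from brown fat to liver, Vegfa (526) and Vegfb (576) were read. Angptl4 (734), Nampt (856) and Igf1 (410.3) were also read. The promoter stretches of the 2 hormones that differed are shown, with Retn at chr8:3655650-3655769, plus strand, and Lep at chr6:29060101-29060220, plus strand.
Retn: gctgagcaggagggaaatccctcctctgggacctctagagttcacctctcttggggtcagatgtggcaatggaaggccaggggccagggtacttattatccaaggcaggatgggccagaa
Lep: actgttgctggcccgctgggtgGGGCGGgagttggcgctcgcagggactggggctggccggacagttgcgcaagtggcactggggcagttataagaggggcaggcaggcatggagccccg
Retn held none of the 4 marked sequences. Lep, the hormone below 100, held GGGCGG at 98 bases before the start, a sequence present in 35.7% of all windows.

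Brown adipocyte genes were read in 17 of 34 cases, or 50% against 36.4% of all measured genes, with a median of 102.5. Cox7a1, a cytochrome c oxidase subunit of muscle and brown fat, was the brightest at 2578, followed by Ucp1, Ppargc1b (841) and Cox8b (792). Ppargc1a (293), the coactivator of mitochondrial biogenesis, was read with 4 of 5 probe sets, and the third member of its family, Pprc1 (245), was read too. The brown fate factors had signals below that of Cox8b, although Ebf2 stood above Ppargc1a. Ebf2 (398) reached 100 with 2 of 3 probe sets and Zic1 (173), a mark of interscapular fat, with 1 of 2. Prdm16, the brown fate determinant, reached 100 with 1 of 4 probe sets and had 108 at 0 h, 77.5 after 1 h and 69.3 after 2 h of ISO. Kcnk3 (229), a potassium channel, Ppara (217), Esrra (210.0), Pank1 (175) and Letmd1 (169.6) were also read. Ppara reached 100 with 3 of 3 probe sets, Kcnk3 with 1 of 3 and Esrra with 1 of 2. In these bulk RNA samples fewer cells of a type and less RNA per cell cannot be told apart.

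The 17 brown genes below 100 included several that are known as brown fat genes. Dio2, the deiodinase that makes active thyroid hormone, was below 100 with all 3 probe sets and at every time, with 7.4 at 0 h, 7.3 after 1 h and 3.9 after 2 h of ISO. Elovl3 had 23.3 at 0 h, 25.9 after 1 h and 41.6 after 2 h of ISO. Irf4 (36.2), Lhx8 (50.5), Otop1 (21.2), Acot11 (20.2), P2rx5 (56.2) and Slc29a1 (97.5) were also below 100. The estrogen-related receptor family was read in Esrra and not in Esrrb (13.7) or Esrrg (11.1).

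Genes of white and beige fat were read in 8 of 28 cases, or 28.6% against 36.4% of all measured genes, with a median of 50.8. The read genes were Psat1 (1563), Retn, Rbl1 (538), Rb1 (383), Nrip1 (345), Dpt (208), Shox2 (173) and Tbx15 (164). Below 100 were the white fat homeobox genes Hoxc9 (73.1), Hoxc8 (61.2) and Hoxc10 (45.8), the beige markers Tmem26 (62.5), Cd40 (14.7), Tnfrsf9 (13.2), Tbx1 (7.0) and Cited1 (0.4), and the visceral markers Wt1 (1.9) and Tcf21 (3.2).

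Precursor and fibroblast genes were read in 16 of 37 cases, or 43.2% against 36.4% of all measured genes, with a median of 87.9. Col1a2 (4133), Col3a1 (4038), Vim (3234) and Fn1 (2996) were the brightest. Pdgfrb (1013) and Pdgfra (383), receptors of fat cell precursors, were read, Pdgfra with 1 of 3 probe sets. Prrx1 (869), Twist1 (193) and Twist2 (158), factors of mesenchyme, were read too. Dlk1, which precursors lose as they differentiate, stood at 124 with 1 of 2 probe sets. Several surface markers of early progenitors were below 100, with Cd34 (11.1), Dpp4 (7.2), Pi16 (2.2), Thy1 (2.1), Cd24a (23.7) and Eng (46.3). The surface protein gene Cd44 (178) was read. Some factors that hold precursors back were also below 100, namely Gata2 (27.9), Gata3 (17.0), Wnt10b (1.2) and Wnt10a (2.7), and Zfp521 (89.4) close to it.

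Contractile genes were read in 21 of 30 cases, or 70% against 36.4% of all measured genes, with a median of 345.7. The brightest were Tpm4 (2262), Cald1 (1860.5), Myh9 (1680.0), the non-muscle myosin, and Cnn3 (1491). The smooth muscle actin Acta2 was read at 1236 with 1 of 3 probe sets, and Tagln (388) and Myl9 (363) were read. The genes that mark mature smooth muscle were not, with Myh11 (7.2), Cnn1 (3.9), Smtn (22.6), Lmod1 (0.7) and their coactivator Myocd (6.1). In the actin family Acta2, Actb and Actg1 (3727) were read, and Acta1 (32.1), Actc1 (2.7) and Actg2 (8.8) of skeletal, cardiac and enteric muscle were not. Tpm1 (393), Tpm2 (772) and Tpm3 (1109.9) were read with Tpm4. Srf (107), which drives many of these genes, was just above 100 and its cofactor Mrtfa (60.7) below it.

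Collagen genes were read in 17 of 34 cases, or 50% against 36.4% of all measured genes, with a median of 104.2. Those read included the fibrillar and network collagens of connective tissue. After Col1a2 and Col3a1 came Col5a2 (2629.7), Col4a1 (2391) and Col6a3 (2239), and Col1a1 (491), the partner chain of Col1a2, was read with both of its probe sets. Of collagen IV, Col4a1, Col4a2 (989.9) and Col4a5 (641) were read, and Col4a3 (1.2), Col4a4 (4.1) and Col4a6 (13.3) were not. All 3 measured chains of collagen VI were read, at 1527 for Col6a1, 1019 for Col6a2 and 2239 for Col6a3. The cartilage collagens Col2a1 (1.2), Col9a1 (5.6), Col10a1 (0.8) and Col11a1 (7.9) were below 100.

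Other matrix genes were read in 44 of 71 cases, or 62% against 36.4% of all measured genes, with a median of 157.3. Sparc (4564), a collagen-binding glycoprotein, Fn1, Pcolce (2833), which helps to trim procollagen, and Bgn (1943), biglycan, were the brightest. The laminin chains read were Lama4 (549), Lamb1 (1086), Lamb2 (156) and Lamc1 (268). The other measured laminin chains, Lama5 (96.5), Lama2 (31.7), Lama3 (4.6), Lama1 (1.3), Lamb3 (43.8) and Lamc3 (9.0), were below 100. Collagen crosslinking was read as Lox (1907), Loxl1 (672) and Loxl3 (105), with Loxl4 (26.9) below. Of the hydroxylases, P4ha1 (364), P4ha2 (248), Plod1 (214), Plod2 (639) and Plod3 (175) were read and P4ha3 (9.6) was not. The metalloproteases read were Adamts1 (499.5), Adamts5 (468), Mmp2 (441), Mmp14 (261) and Mmp11 (173), and Timp2 (541), Timp3 (185) and Timp1 (155) their inhibitors, with Timp4 (4.5) below 100.

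G protein-coupled receptors were the group with the lowest share outside the markers of other cells. Only 11 of 74 measured genes were read, or 14.9% against 36.4% of all measured genes, and the median was 12.8. The receptors read were F2r (1049.5), the thrombin receptor, the Wnt receptors Fzd1 (636), Fzd4 (223), Fzd7 (137) and Fzd5 (122), the sphingosine phosphate receptor S1pr3 (596), Lgr4 (249), Smo (245), Lpar4 (156), Lpar6 (155) and Ffar2 (126), a receptor of short-chain fatty acids. Several receptors known for acting on fat cells were below 100, with Tshr (67.6), Ffar4 (66.4), Hcar1 (43.1), Mc2r (30.4), Ptger3 (4.1) and Cnr1 (7.5). The 2 adrenergic receptors measured, Adra1b (11.6) and Adra2c (7.5), are α types. The β types were not analysed here.

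The cyclic AMP machinery behind such receptors was read in 27 of 47 cases, or 57.4% against 36.4% of all measured genes. The median was 123.5. Gnas (2506), the stimulatory G protein α subunit, Pde3b (1708), the phosphodiesterase through which insulin restrains lipolysis, Prkar1a (1287) and Prkaca (1268) were the brightest, although only 1 of 5 probe sets of Gnas reached 100. Of the adenylyl cyclases, Adcy6 (489), Adcy7 (126), Adcy3 (124) and Adcy9 (106) were read. Adcy7 reached 100 with 1 of 3 probe sets, and Adcy3 and Adcy9 each with 1 of 4. Adcy5 (39.3), Adcy2 (13.8), Adcy10 (5.1), Adcy8 (4.1), Adcy1 (2.3) and Adcy4 (2.2) were not read. The kinase was read in both catalytic subunits, Prkaca and Prkacb (244), and in the regulatory subunits Prkar1a, Prkar2a (475) and Prkar2b (874), with Prkar1b (67.2) below. All 3 probe sets of Prkar2b, the regulatory subunit abundant in fat, reached 100. Creb1 (234) and its partner Crebbp (386) were read, and the coactivators Crtc1 (35.5), Crtc2 (47.0) and Crtc3 (62.2) were not. Kdm3a (422), an H3K9 demethylase, was read.

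Receptors of growth factors, cytokines and hormones were read in 40 of 77 cases, or 51.9% against 36.4% of all measured genes. The median was 131. The brightest were Tfrc (1337), the transferrin receptor, Ghr (1254), the growth hormone receptor, Tgfbr3 (1189) and Pdgfrb. Both adiponectin receptors, Adipor1 (758) and Adipor2 (798), were read. The insulin receptor Insr (311) was read with 1 of 3 probe sets, and Igf1r (68.4) was below 100 with all 5. The insulin receptor substrates Irs1 (766) and Irs2 (120.3) were read, and Irs3 (5.4) and Irs4 (1.4) were not. Among FGF receptors Fgfr1 (339.7) was read with 1 of 3 probe sets. Klb (386), the co-receptor for FGF21, was read with 1 of 2. Fgfr2 (43.0), Fgfr3 (22.0) and Fgfr4 (8.1) were below 100. The receptors of hematopoietic and endothelial growth factors were not read, with Kit (5.9), Csf1r (20.4), Kdr (9.3) and Flt1 (11.1), nor was the leptin receptor Lepr (8.6).

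Nuclear receptors were read in 11 of 44 cases, or 25% against 36.4% of all measured genes, with a median of 12.8. Pparg, Nr1d2 (775), Nr3c1 (479.6), the glucocorticoid receptor, and Nr2c2 (310.4) were the brightest. In the PPAR family Pparg and Ppara were read and Ppard (39.4) was not. Rxrb (230.3) and Rxra (116), the partners of PPARs, were read, and Rxrg was below 100 at 11.8. The thyroid hormone receptor Thra (139.5) was read with 1 of 3 probe sets and Thrb (6.3) was not. None of the retinoic acid receptors was read, at Rarg (33.6), Rarb (9.2) and Rara (5.6). Of the COUP-TFs, Nr2f2 (271), with 1 of 6 probe sets, and Nr2f6 (257), with both, were read, and Nr2f1 (80.5) was just below. The immediate early receptors were below 100 at rest, with Nr4a1 (79.4), Nr4a2 (11.0) and Nr4a3 (10.0).

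Mitochondrial fuel pathways were read almost completely, where 36.4% of all measured genes were read. All 18 measured TCA cycle genes were read, with a median of 2107.2 and 13 of at least 1000, from Cs (4145), Mdh2 (3896), Mdh1 (3880.2) and Idh3a (3372) at the top to Ogdh (372). Fatty acid oxidation gave 23 of 26, or 88.5%, with a median of 895.9. Hadh (3937), Acadm (3184), Hadhb (2859.6) and Acadl (2527) were the brightest, and the carnitine shuttle was read as Cpt1a (319.9), Slc25a20 (597) and Cpt2 (463). Of 3 listed carnitine palmitoyltransferase 1 genes only 2 were measured, Cpt1a and Cpt1c. Cpt1c (70.6), Acad10 (68.2) and Acot11 were below 100. Breakdown of branched-chain amino acids gave 21 of 24, or 87.5%, with a median of 412.3. Acat1 (2048), Echs1 (1510.1), Hibadh (1261) and Dbt (999) were the brightest, and those below 100 were the transaminases Bcat1 (27.1) and Bcat2 (24.0), the first step of the pathway, and Abat (10.9).

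Glycolysis and pyruvate handling were read in 25 of 31 cases, or 80.6% against 36.4% of all measured genes. The median was 604.1, and Gapdh (4788), Aldoa (4328), Pdhb (4252) and Pgk1 (4211) were the brightest. Isoforms were read selectively. Of the glucose transporters, the basal Slc2a1 (523) and the insulin-regulated Slc2a4 (493) were read, Slc2a4 with both probe sets, and the other 8 measured were between 0.3 for Slc2a2 and 96.7 for Slc2a8. Of the measured hexokinases, Hk2 (553) and Hk1 (211) were read, with Hk3 (12.5) and Hkdc1 (4.5) below. The phosphofructokinases Pfkp (604), Pfkl (242) and Pfkm (225) were all read. Ldha (3681) and Ldhb (1329.9) were read, and Ldhc (3.3) and Ldhd (27.1) were not. Slc16a1 (2265), a transporter of lactate and ketone bodies, was read, and Slc16a3 (12.5), Slc16a7 (4.3) and Slc16a8 (3.2) were not. Of the pyruvate dehydrogenase kinases, Pdk4 (621) and Pdk1 (384) were read, and Pdk3 (87.7) and Pdk2 (26.6) were below.

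Cytochrome c oxidase carried both ubiquitous and muscle-type subunits. All 3 measured genes of the subunit 7A family were read. Cox7a1 had a signal of 2578 at 0 h, 2467 after 1 h and 2271 after 2 h of ISO. Cox7a2 had 5622 at 0 h, 5933 after 1 h and 5370.0 after 2 h of ISO. Cox7a2l (1471), a gene named as 7A2-like, was the third gene of this family. Cox8a (3422) and Cox8b were read and Cox8c was not, Cox6a1 (4732) was read together with Cox6a2 (387), the form of heart and muscle, Cox4i1 without Cox4i2, and Cox6b1 without Cox6b2. The promoters of the muscle-type and the ubiquitous subunit 7A are shown, from chr7:30184051-30184170, plus strand, for Cox7a1 and chr9:79759854-79759973, minus strand, for Cox7a2.
Cox7a1: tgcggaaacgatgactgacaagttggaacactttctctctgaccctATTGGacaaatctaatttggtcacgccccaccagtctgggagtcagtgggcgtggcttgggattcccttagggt
Cox7a2: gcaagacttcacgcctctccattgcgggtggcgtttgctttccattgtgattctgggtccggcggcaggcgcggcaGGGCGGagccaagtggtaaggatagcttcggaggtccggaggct
The stretch of Cox7a1 held ATTGG, 74 bases before the start, and that of Cox7a2 held GGGCGG, 44 bases before it. In the whole windows the ratio of observed to expected CpG was 0.33 for Cox7a1 and 0.83 for Cox7a2.

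**Figure D3:**
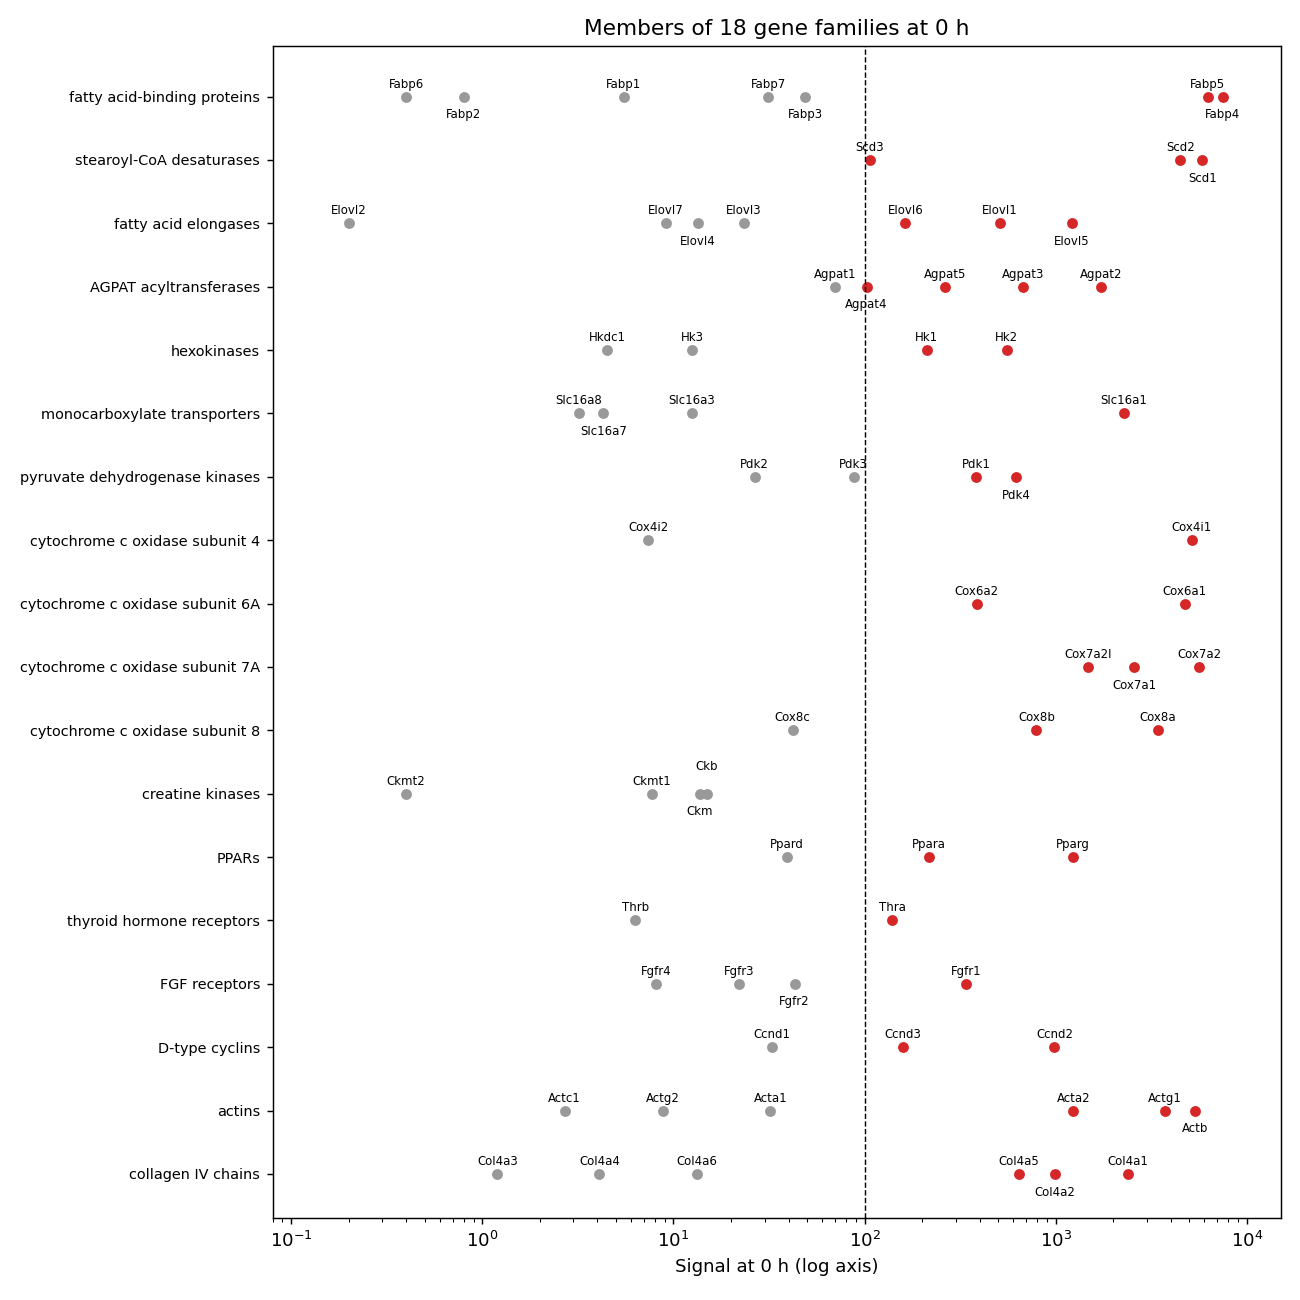
The signal at 0 h (log axis) of each measured member of 18 gene families is shown as a labelled point, red at 100 or above and grey below, with a dashed line at 100. Fatty acid-binding proteins fall apart into Fabp4 and Fabp5 at the right and 5 members below 50, all 4 creatine kinases are grey, and Cox7a1, Cox7a2 and Cox7a2l are all red.

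Other ways of using energy were read unevenly. All 4 creatine kinases were below 100, at Ckb (14.9), Ckm (13.7), Ckmt1 (7.7) and Ckmt2 (0.4), as were the creatine synthesis enzymes Gatm (0.3) and Gamt (65.3), whereas the creatine transporter Slc6a8 (149.9) was read. Oxct1 (3359), which lets cells use ketone bodies, Acat1 and Hmgcs1 (1699.9), the cytosolic HMG-CoA synthase of sterol synthesis, were read. The creatine and ketone list gave 4 of 12, or 33.3% against 36.4% of all measured genes. Of the SERCA calcium pumps Atp2a2 (1318) was read, Atp2a1 (10.5) was not and Atp2a3 (99.0) lay just under the limit, and the ryanodine receptors Ryr1 (0.5), Ryr2 (1.2) and Ryr3 (3.8) were all below 100. The nucleotide translocators Slc25a4 (3625) and Slc25a5 (3978) were read and Slc25a31 (3.0) was not. Besides Ucp1 the uncoupling protein measured was Ucp3 (22.1), below 100.

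Genes of cell division were read almost throughout, 39 of 42, or 92.9% against 36.4% of all measured genes. The median was 553.6. Pcna (4040.0), the sliding clamp of DNA replication, was the brightest, at rank 78, and the replication helicase subunits Mcm7 (2245), Mcm6 (1558) and Mcm4 (1466) followed. Genes of mitosis were read as well, with Cdk1 (1225), Cdc20 (1175), Top2a (1009), Mki67 (802), Birc5 (627) and Ccnb2 (596). Inhibitors of the cycle were read beside them, with Cdkn2c (1400.3), Cdkn1a (722), Cdkn1c (363), Cdkn2a (345), Cdkn1b (321) and Cdkn2b (312). Of the D-type cyclins, Ccnd2 (985) reached 100 with 6 of 7 probe sets and Ccnd3 (159) was read, while Ccnd1 (32.8) was below 100 with all 3. Cdk6 (73.8) and Tyms (26.1) were also below. At 1 h Pcna had 4248 and at 2 h 3628.

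The promoter of Pcna is shown as that of the brightest replication gene, from chr2:132253181-132253300, minus strand.
Pcna: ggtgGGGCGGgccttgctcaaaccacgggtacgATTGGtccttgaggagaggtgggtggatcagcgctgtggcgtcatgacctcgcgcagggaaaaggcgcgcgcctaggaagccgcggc
It held GGGCGG 116 bases and ATTGG 87 bases before the start. Over the read cell cycle genes CCAAT on either strand was present in 25 of 37 windows, or 67.6%, and GGGCGG in 31, or 83.8%. Over read genes CCAAT occurred in 40.5% of windows at a signal of at least 1000 and 37.5% from 100 up to 1000, and GGGCGG in 65.1% and 67.3%. In windows of the read TCA cycle genes and of the read branched-chain amino acid genes CCAAT occurred in 71.4%.

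Isoform choice was counted over 74 families with 2 or more measured members. Every member was read in 20 families, some but not all in 50, and none in 4. Exactly 1 member was read in 18 families. The members at 100 or above were the same on all 3 arrays in 70 of the 74 families. Requiring every probe set to reach 100 moved the count of read members by over 1.5 times, or to 0, in 46 of all 79 families listed. Of 264 members, 155 were read, against 6629 of all 18194 measured genes, or 36.4%. The families had been chosen with earlier results of these data known. The metallothionein and superoxide dismutase families, 2 families of protective proteins, had bright members. The metallothioneins Mt1 (4373) and Mt2 (2166) were read and Mt3 (2.2) and Mt4 (4.8) were not, and the superoxide dismutases Sod1 (3695) and Sod2 (1763) were read, with the extracellular Sod3 (7.3) below.

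**Figure D4:**
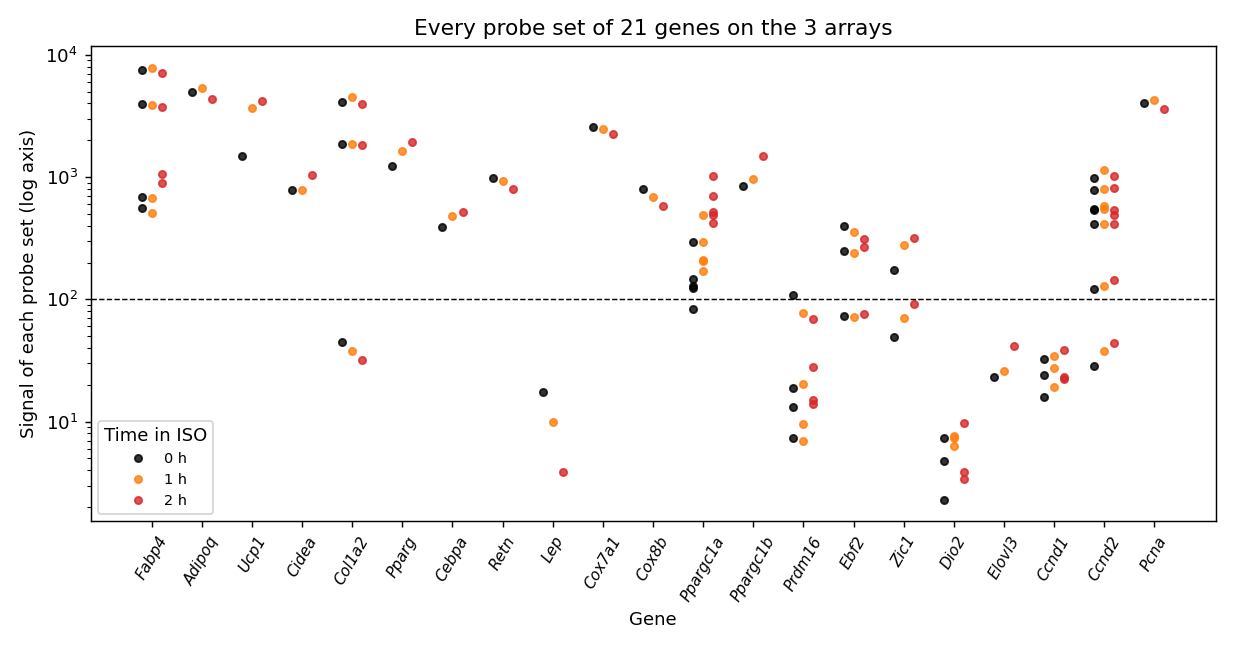
Every probe set of 21 genes is plotted as a point by its signal (log axis) at 0 h (black), 1 h (orange) and 2 h (red), with a dashed line at 100. Probe sets of 1 gene lie far apart, such as those of Col1a2 from 44.4 to 4133 at 0 h, the 3 readings of most probe sets lie close together, and all probe sets of Dio2, Elovl3, Lep and Ccnd1 are below 100 on every array.

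Markers of other cell types were below 100. None of 62 genes in 6 lists was read, against 36.4% of all measured genes. Their median was 5.3, against 35.9 over all measured genes. The brightest members were Cldn5 (10.3), Kdr (9.3), Esam (8.1) and Robo4 (8.0) for endothelium, Cd68 (58.9), Cd14 (34.6), Csf1r (20.4) and Laptm5 (12.9) for macrophages and leukocytes, and Acta1 (32.1), Tnnc2 (14.6), Ckm (13.7) and Mylpf (12.8) for skeletal muscle. The other lists gave Mbp (46.5), Gfap (8.2), Syt1 (6.5) and Sox10 (5.1) for nerve and Schwann cells, Epcam (30.8), Krt19 (18.8), Krt5 (12.9) and Krt8 (12.6) for epithelium, and Apoa1 (14.4), Ttr (4.8), Alb (1.6) and Hba-a1 (0.8) for liver and red cells. The defining markers Pecam1 (0.5) and Cdh5 (6.0) of endothelium, Ptprc (0.6) of leukocytes and Myod1 (9.6) of muscle were all below 10. All 15 housekeeping genes were read, from Rpl13a (5864), Eef1a1 (5672), Actb (5351) and B2m (5225) down to Tbp (134). The control probe sets of Actb gave 5351 at its 3′ end and 3325 at its 5′ end.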

How the data were processed

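RNA of iBATs at 0, 1 and 2 h of ISO was hybridized to Affymetrix mouse arrays, with 1 array per time point and all on differentiation day 8. The authors deposited 1 linear MAS5 intensity per probe set and array, as the submitters' processing notes name it. On the 0 h array the intensities had a mean of 100.0 after 2% was removed from each end and a median of 13.6. The methods exclude absent calls and signals under 100, but the deposited table still holds them. Precision is limited by the number of arrays, and no p-value was computed. Whether the 3 arrays came from separate cultures is not given in the sources used here.

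Of 45101 probe sets, 34958 had 1 gene symbol in the platform annotation and stood for 18194 genes, 932 had several and 9211 had none. Those without a single symbol were not used. The symbols were compared with RefSeq by gene identifier for 34754 probe sets and none changed. Promoter windows came from RefSeq (GRCm38.p6) and were matched by symbol.

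Genes were read at a signal of at least 100. The 28 lists, 79 families and the members were chosen with earlier results of these data known, and the ribosomal and oxidative phosphorylation lists and the level of 1000 were added after the signals had been seen. Named genes were the 30 brightest, the 5 markers, the 4 brightest of each list with members known for it that fell below 100, all members of a described family in values or range, and the genes next to the limit. Further list members are named to complete a description, a choice made with the signals known. The ranking step recovered all genes planted in a simulated table. Python 3.11.15, numpy 2.4.6 and pandas 2.3.3 were used. Alternatives were other minimums (50 and 200), quantile normalization, other rules for several probe sets, and the 1 h or 2 h array. Some genes are not reported here.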

Additional observations from a re-analysis of the deposited data

How the results depend on the processing

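The count of 6629 read genes moved by less than 1.5 times with a minimum of 50 (8414) or 200 (4525), with 100 required on all 3 arrays (6164), after quantile normalization (6553), with the median over probe sets (4838), without probe sets of shared sequence (5207 of the 16593 genes left), and on the 1 h (6532) or 2 h array (6432). It fell to 3017 where every probe set had to reach 100, a rule that is harder to pass the more probe sets a gene has. Under that rule the counts were 7 for adipocyte transcription factors, 10 for fatty acid uptake, 9 for lipogenesis, 8 for secreted adipocyte proteins, 8 for brown genes, 3 for white and beige genes, 8 for precursor genes, 8 for contractile genes, 11 for collagens, 25 for other matrix genes, 2 for G protein-coupled receptors, 6 for growth factor receptors, 4 for nuclear receptors, 9 for the cyclic AMP machinery, 9 for the TCA cycle, 14 for fatty acid oxidation, 13 for branched-chain amino acids, 2 for creatine and ketone genes, 21 for the cell cycle and 8 for housekeeping genes. With the median over probe sets they were 5 for white and beige genes, 7 for G protein-coupled receptors, 22 for growth factor receptors, 7 for nuclear receptors and 15 for the cyclic AMP machinery. A minimum of 50 gave 14 white and beige genes, 19 G protein-coupled receptors and 1 macrophage or leukocyte marker, and a minimum of 200 gave 10 adipocyte transcription factors and 6 G protein-coupled receptors. Without probe sets of shared sequence, 9 of the 24 secreted adipocyte proteins left, 16 of 24 glycolysis genes and 12 of 26 ribosomal proteins were read, and 42 of the 68 genes left of the brightest 100 stayed in that group. On the 1 h and 2 h arrays, after quantile normalization and with 100 required on all 3 arrays, the count of every list stayed within 1.5 times. Of the 79 families, the count of read members moved by over that in 46 where every probe set had to reach 100, 20 without probe sets of shared sequence, 15 at a minimum of 200, 14 with the median over probe sets, 9 at a minimum of 50, 2 on the 1 h array, 2 on the 2 h array, 2 with 100 required on all 3 arrays and 1 after quantile normalization.

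Leaving out a replicate was not possible, with 1 array at each time point. No paired analysis was possible because the groups share fewer than 2 replicate numbers. The depth of an array is not counted in reads, and signals near 100 are the least certain.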
